A study of Mus musculus with 13 samples.

Results

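The maintenance genes of mitochondrial DNA were a set of 9 nuclear genes: Polg, Polg2, Tfam, Tfb2m, Ssbp1, Polrmt, Dguok, Top1mt and Mgme1. They were taken by symbol from a list of the genes that replicate and transcribe the mitochondrial genome, and all 9 were among the 24421 genes of the count table. RNA was sequenced from 13 libraries of female MMTV-HER2/Neu mice: 11 mammary tumors and 2 cancer-free mammary glands. The question put to these genes was whether their RNA differed between tumor and gland, with stavudine in the drinking water, or between tumors that recurred after 17-DMAG and primary tumors.

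All mice were FVB/N-TgN of the line 202Mul/J with the transgene MMTV-HER2/neu, in which a rat HER2/Neu cDNA is driven in the mammary epithelium by the promoter of the mouse mammary tumor virus, and the glands carried the same transgene. The genotype field of every sample read wild type. Primary untreated tumors (n = 3) and the glands (n = 2) came from mice on plain water. Primary STV tumors (n = 3) arose in mice that drank stavudine (STV), a thymidine analog that inhibits reverse transcriptase, at 1 mg/mL. Recurrent DMAG tumors (n = 3) had first vanished and then regrown in mice given 17-DMAG, which blocks the chaperone HSP90 and was injected at 20 mg/kg 3 times a week, and recurrent DMAG+STV tumors (n = 2) had done so in mice kept on stavudine. Recurrence and exposure to 17-DMAG therefore cannot be told apart. Stavudine was started at 2 months of age or once primary tumors had appeared, and the labels give neither which start applied to a tumor nor the age of the mice. Each tumor was an individual tumor, but nothing says which came from separate mice, so the p-values measure the spread between these samples only.

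Mitochondria carry their own circular genome in many copies, and every protein that copies it is encoded in the nucleus. The polymerase gamma holoenzyme (Polg with Polg2) replicates it, Ssbp1 coats the unwound strand, Mgme1 trims displaced flaps and Top1mt relaxes supercoils, while Polrmt, Tfam and Tfb2m start transcription and make the primer for replication, and Dguok supplies purine nucleotides inside the organelle. The triphosphate of stavudine can be built in by polymerase gamma and ends the chain, which is why loss of mitochondrial DNA is a known toxicity of the drug in liver, fat and nerve. Mitochondrial DNA itself was not measured here, and none of the genes encoded in it was among the rows analysed.

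Known regulators of promoters of this family are GABPA, an ETS factor, and NRF1, nuclear respiratory factor 1, and the stretches below are printed to show how the proximal promoters of the polymerase, accessory and transcription genes resemble each other in these letters. The promoters (250 bases before to 50 after the RefSeq start, GRCm38.p6) were found for 8 of the 9 genes, Top1mt being without an entry. The GABPA core CCGGAAG was searched on both strands and was in 5 of the 8 promoters, against 8.86% of 32851 mouse promoters of the same length. The NRF1 core GCGCANGCG was in 2 of the 8, against 6.25%. Each sequence is written 5′ to 3′ on the strand of its gene, with the match in capitals.
Polg, 60 bases at chr7:79466278-79466337, minus strand, match beginning 38 bases before the start: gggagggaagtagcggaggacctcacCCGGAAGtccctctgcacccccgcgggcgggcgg
Polg2, 60 bases at chr11:106779538-106779597, minus strand, 29 bases before: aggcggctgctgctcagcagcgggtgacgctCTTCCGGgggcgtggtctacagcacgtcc
Tfam, 60 bases at chr10:71238058-71238117, minus strand, 47 bases before: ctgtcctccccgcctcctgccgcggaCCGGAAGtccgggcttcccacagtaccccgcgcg
Ssbp1, 60 bases at chr6:40471395-40471454, plus strand, 47 bases before: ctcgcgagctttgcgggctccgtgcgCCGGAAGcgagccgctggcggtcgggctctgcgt
Polrmt, 60 bases at chr10:79746591-79746650, minus strand, 43 bases before: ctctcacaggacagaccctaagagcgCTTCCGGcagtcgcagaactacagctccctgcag
Polrmt, NRF1 core, 30 bases at chr10:79746564-79746593, 2 overlapping matches from 5 bases before the start: caggcggCGCGTGCGCGTGCGCactgcggg
Tfb2m, NRF1 core, 30 bases at chr1:179546245-179546274, minus strand, match from base 13 of the transcript: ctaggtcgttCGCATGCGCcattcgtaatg
The 5 GABPA matches lay between 29 and 47 bases before the RefSeq start, as CCGGAAG in Polg, Tfam and Ssbp1 and as its reverse complement CTTCCGG in Polg2 and Polrmt. The RefSeq start lay 89, 236 and 116 bases inside the GENCODE gene for Polg, Tfam and Ssbp1, whose stretches are therefore within the gene positions given with each member, and it was the same as the GENCODE start for Polg2 and Polrmt. A match describes the letters and is not a measured binding site.

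Library totals ran from 39921388 to 56887708 counts, so that 3 counts equalled 0.0587 to 0.107 CPM, and no member fell under 178 counts in any library. CPM here is the usual count scaled to the library total, with that total multiplied by edgeR's TMM factor. All 5 luminal epithelial markers were detected in every library. Gland 2 stood apart: genes of milk took 36.1% of its counts against 3.15% in gland 1, its TMM factor was 0.493 against 0.999 to 1.12 elsewhere, and its 12 skeletal muscle markers summed to 1963 CPM. Among the tumors, recurrent DMAG tumor 1 had the highest summed levels of the 4 endothelial markers (241 CPM, next 128) and of the 7 leukocyte markers (575 CPM, next 386). In bulk tissue, fewer cells of a type and less RNA per cell cannot be told apart.

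All 9 genes were expressed in each of the 11 tumors. Per kilobase of exon, the scale on which genes can be set side by side, Dguok was the highest at 12.6 ± 1.09 CPM per kb (mean ± SD, n = 11). It was followed by Tfb2m at 8.49 ± 0.642, Tfam at 8.13 ± 1.26, Ssbp1 at 6.81 ± 0.749, Polrmt at 6.48 ± 0.970, Polg at 6.18 ± 0.458, Polg2 at 5.02 ± 0.817, Mgme1 at 4.36 ± 0.571 and Top1mt at 4.13 ± 0.960 CPM per kb. Only Dguok stood clear, its lowest tumor (10.2 CPM per kb) being above the highest tumor of the next gene (9.34), and each other neighbouring pair in this order overlapped. The lengths are those of all exons joined over the GENCODE transcripts of a gene that carry a link to a curated RefSeq transcript, so a long exon that these tumors seldom use lowers a value.

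**Figure D1:**
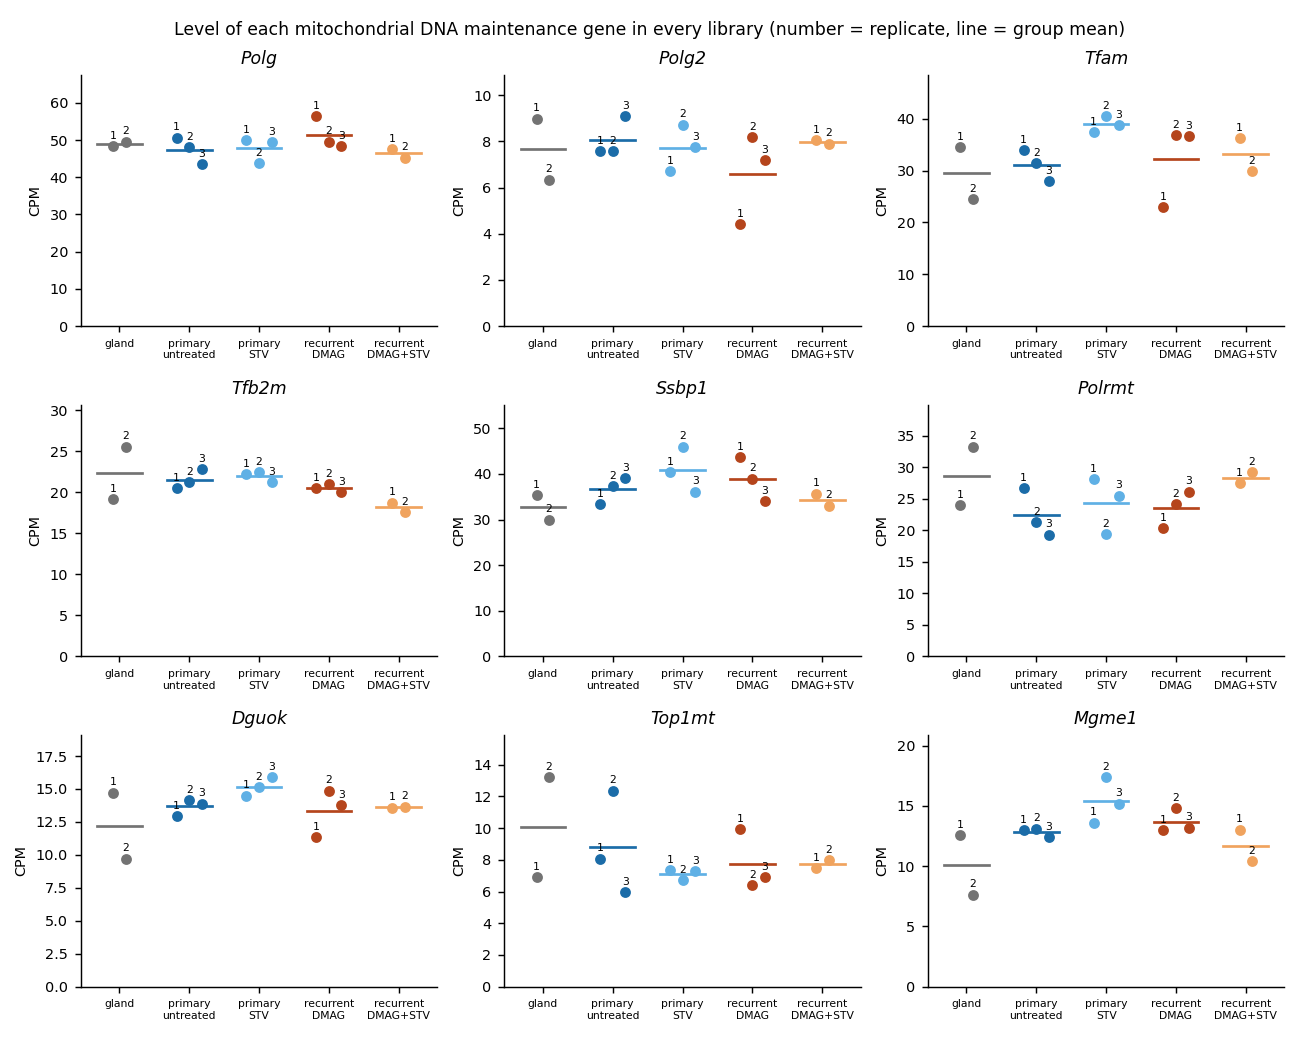
CPM (vertical axis, from 0) of each of the 9 genes in every library, by group (horizontal axis), with the replicate number above each point and the group mean as a line. Polg stays between 43.6 and 56.3 CPM in all tumors, Polg2, Tfam and Dguok have their lowest tumor in recurrent DMAG tumor 1, and Top1mt has its highest in primary untreated tumor 2.

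Polg, the catalytic subunit of the polymerase (chr7:79446231-79466362, GRCm38, minus strand), varied least. Its level was 50.6, 48.2 and 43.6 CPM in the primary untreated tumors, 50.1, 43.8 and 49.5 in the primary STV tumors and 48.5 and 49.6 in the glands. After 17-DMAG the recurrent tumors had 56.3, 49.6 and 48.4 CPM, and with stavudine as well they had 47.6 and 45.3. Every tumor lay within a factor of 1.29 of every other, with recurrent DMAG tumor 1 the highest and primary untreated tumor 3 the lowest. In primary tumors stavudine against untreated gave a log2 fold change of -0.0028 (95% interval -0.25 to 0.24, adjusted p = 1.00) by edgeR's quasi-likelihood test, so that a change beyond 0.844-fold or 1.18-fold lay outside the interval. Averaged over primary and recurrent tumors, stavudine against none gave a log2 fold change of -0.072 (95% interval -0.25 to 0.11, adjusted p = 0.993). Of the exon bases of Polg, 8.48% overlap Fanci on the opposite strand, and the sources used here do not state whether counting used the strand.

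Polg2, the accessory subunit that gives the polymerase its processivity (chr11:106768253-106779537, minus strand), was far more variable. It stood at 7.59, 7.58 and 9.08 CPM in the primary untreated tumors, 6.72, 8.72 and 7.76 in the primary STV tumors and 8.99 and 6.35 in the glands. The recurrent DMAG tumors had 4.42, 8.17 and 7.18 CPM and the recurrent DMAG+STV tumors 8.05 and 7.91. One tumor, recurrent DMAG tumor 1, lay far below the other 10, which spanned 6.72 to 9.08 CPM. Recurrent against primary tumors without stavudine gave a log2 fold change of -0.31 (95% interval -0.84 to 0.22, adjusted p = 0.604), and the value was -0.069 without that tumor. With stavudine in primary tumors the difference was a log2 fold change of -0.076 (95% interval -0.61 to 0.45, adjusted p = 1.00). Its overlap with Milr1 on the opposite strand covers 4.65% of its exon bases.

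Ssbp1, the single-stranded DNA binding protein of the replication fork (chr6:40471352-40484700, plus strand), had 33.5, 37.3 and 39.1 CPM in the primary untreated tumors, 40.3, 46.0 and 36.1 in the primary STV tumors and 35.3 and 30.01 in the glands. The values were 43.7, 39.0 and 34.0 CPM in the recurrent DMAG tumors, against 35.7 and 33.1 in the recurrent DMAG+STV tumors. The groups overlapped except that both recurrent DMAG+STV tumors lay below all 3 primary STV tumors, where recurrent against primary gave a log2 fold change of -0.24 (95% interval -0.58 to 0.095, adjusted p = 0.578). Stavudine against untreated in primary tumors gave a log2 fold change of 0.14 (95% interval -0.16 to 0.45, adjusted p = 1.00).

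Mgme1, the exonuclease that processes displaced ends of the replicating strand (chr2:144270663-144281227, plus strand), showed the widest contrast between tumor groups in its log2 fold changes. It measured 13.002, 13.1 and 12.4 CPM in the primary untreated tumors, 13.6, 17.4 and 15.2 in the primary STV tumors and 12.6 and 7.64 in the glands. The recurrent tumors measured 12.99, 14.8 and 13.2 CPM after 17-DMAG and 13.02 and 10.4 after 17-DMAG with stavudine. All 3 primary STV tumors were above all 3 primary untreated tumors and above both recurrent DMAG+STV tumors. Stavudine against untreated in primary tumors gave a log2 fold change of 0.25 (95% interval -0.080 to 0.58, adjusted p = 1.00), a difference that did not pass the test. Recurrent against primary tumors under stavudine gave a log2 fold change of -0.39 (95% interval -0.76 to -0.019, adjusted p = 0.481), with an unadjusted p of 0.0412. The difference between these effects, the interaction of recurrence and stavudine, was a log2 fold change of -0.47 (95% interval -0.96 to 0.031, adjusted p = 0.651), so it was not shown that stavudine acted differently on Mgme1 in recurrent and primary tumors.

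Top1mt, the topoisomerase of mitochondria (chr15:75657035-75678800, minus strand), was the most variable member. Its level was 8.08, 12.4 and 5.97 CPM in the primary untreated tumors, 7.34, 6.72 and 7.27 in the primary STV tumors and 6.93 and 13.2 in the glands. The recurrent tumors had 9.93, 6.39 and 6.93 CPM after 17-DMAG and 7.49 and 7.99 after 17-DMAG with stavudine. The primary untreated tumors alone ranged 2.07-fold, between tumor 3, the lowest of all tumors, and tumor 2, the highest. Stavudine against untreated in primary tumors gave a log2 fold change of -0.32 (95% interval -0.95 to 0.31, adjusted p = 1.00), and without primary untreated tumor 2 the value was 0.026, of the opposite sign. The same library turned the value for recurrent against primary tumors without stavudine from -0.20 to 0.14.

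Tfam, which packs mitochondrial DNA into nucleoids and activates its promoters (chr10:71225464-71238280, minus strand), was the member with the largest positive value under stavudine in primary tumors. It measured 33.9, 31.4 and 28.0 CPM in the primary untreated tumors, 37.4, 40.4 and 38.8 in the primary STV tumors and 34.6 and 24.6 in the glands. The recurrent DMAG tumors stood at 23.0, 36.9 and 36.7 CPM and the recurrent DMAG+STV tumors at 36.3 and 29.9. All 3 primary STV tumors were above every primary untreated tumor and above both recurrent DMAG+STV tumors, while recurrent DMAG tumor 1 was the lowest of the 11. Stavudine against untreated in primary tumors gave a log2 fold change of 0.31 (95% interval -0.094 to 0.71, adjusted p = 1.00), and the value lay between 0.24 and 0.38 in the 11 fits that left out a tumor. In recurrent tumors stavudine against none gave a log2 fold change of 0.048 (95% interval -0.40 to 0.50, adjusted p = 0.979), or -0.15 without recurrent DMAG tumor 1. The interaction was a log2 fold change of -0.26 (95% interval -0.87 to 0.34, adjusted p = 0.850).

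Tfb2m, the factor that opens the mitochondrial promoter for the RNA polymerase (chr1:179528055-179546267, minus strand), had the tightest replicates. Its level was 20.6, 21.2 and 22.9 CPM in the primary untreated tumors, 22.3, 22.5 and 21.2 in the primary STV tumors and 19.2 and 25.6 in the glands. It was 20.5, 21.1 and 20.0 CPM in the recurrent DMAG tumors, while the recurrent DMAG+STV tumors had 18.8 and 17.6. Both recurrent DMAG+STV tumors were below the other 9 tumors. Recurrent against primary tumors gave a log2 fold change of -0.27 (95% interval -0.52 to -0.015, adjusted p = 0.479) under stavudine, with an unadjusted p of 0.0402, and a log2 fold change of -0.087 (95% interval -0.31 to 0.14, adjusted p = 0.740) without it. Averaged over both, the value was a log2 fold change of -0.18 (95% interval -0.35 to -0.0080, adjusted p = 0.353), with an unadjusted p of 0.0419.

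Polrmt, the RNA polymerase of mitochondria (chr10:79736123-79746581, minus strand), had 26.7, 21.4 and 19.3 CPM in the primary untreated tumors, 28.2, 19.4 and 25.5 in the primary STV tumors and 24.1 and 33.3 in the glands. The values were 20.3, 24.1 and 26.1 CPM in the recurrent DMAG tumors, against 27.5 and 29.2 in the recurrent DMAG+STV tumors. Both recurrent DMAG+STV tumors were above the recurrent DMAG tumors, with a log2 fold change of 0.28 (95% interval -0.17 to 0.72, adjusted p = 0.813). Averaged over primary and recurrent tumors, stavudine against none gave a log2 fold change of 0.19 (95% interval -0.11 to 0.49, adjusted p = 0.993).

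Dguok, the mitochondrial deoxyguanosine kinase (chr6:83480217-83506969, minus strand), had 12.96, 14.2 and 13.9 CPM in the primary untreated tumors, 14.5, 15.1 and 15.9 in the primary STV tumors and 14.7 and 9.71 in the glands. Its values were 11.3, 14.9 and 13.8 CPM in the recurrent DMAG tumors, while the recurrent DMAG+STV tumors had 13.6 and 13.7. The 3 primary STV tumors lay above the primary untreated tumors, with a log2 fold change of 0.14 (95% interval -0.17 to 0.44, adjusted p = 1.00). Stavudine against none in recurrent tumors gave a log2 fold change of 0.039 (95% interval -0.30 to 0.38, adjusted p = 0.975).

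**Figure D2:**
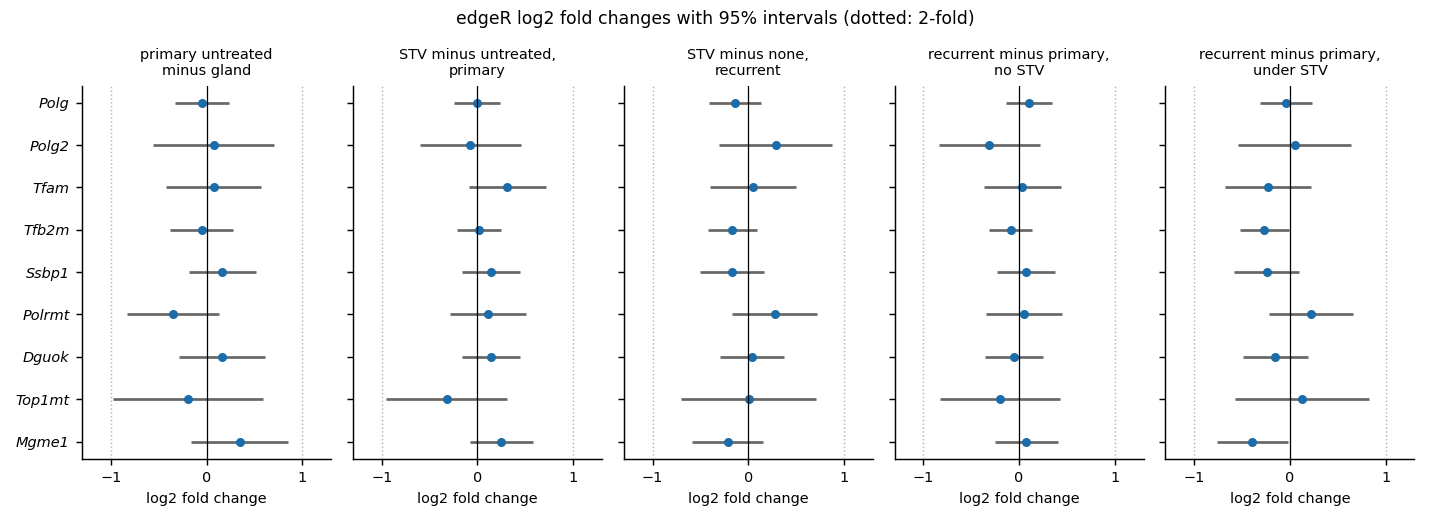
Log2 fold change from edgeR (point) with its 95% interval (line) for each of the 9 genes in 5 comparisons, with the solid line at no change and dotted lines at 2-fold. Every interval in these 5 comparisons stays inside 2-fold, and the intervals of Tfb2m and Mgme1 lie just below 0 in recurrent against primary tumors under stavudine.

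Under stavudine in primary tumors, 0 of the 9 genes were called by edgeR at an adjusted p under 0.05, and 0 of 16870 genes were called at all (0%). DESeq2 called 18 genes and limma voom 0, neither a member among them, and 0 had an unadjusted p under 0.05, against 3.76% of all genes tested. The 6 positive and 3 negative values had a median of 0.11, beside a median of -0.030 over all genes. The primary STV tumors did not overlap the primary untreated tumors for Tfam, Dguok and Mgme1, all higher, which is 3 of 9 beside 10.8% of all genes tested. Of 9 marker lists 1 did not overlap between these groups: the 4 endothelial markers summed to 61.5 to 92.7 CPM with stavudine and 97.2 to 121 without, none being at 0 in any library, and their part in the members' values was not tested. The other 8 overlapped, among them the 15 proliferation markers (711 to 1025 CPM with stavudine and 712 to 905 without) and the 12 skeletal muscle markers (7.00 to 175 and 2.77 to 1056 CPM). An adjusted p above the threshold does not show that the levels were equal, but all 9 intervals lay inside 2-fold and 6 inside 1.5-fold.

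In recurrent tumors, stavudine against none again gave 0 called members of 9 and 0 of 16870 genes (0%), with 0 members at an unadjusted p under 0.05 beside 7.84% of all genes. DESeq2 called 268 genes and limma voom 0, with 0 members by either. Polg and Tfb2m were lower and Polrmt was higher in both recurrent DMAG+STV tumors than in all recurrent DMAG tumors, 3 of 9 beside 21.5% of all genes, and the other 6 overlapped. Luminal epithelial and proliferation markers, 2 of the 9 lists, moved with this comparison. The 5 luminal markers summed to 1242 to 2042 CPM with stavudine and 2126 to 2661 without, and the 15 proliferation markers to 284 to 559 CPM with stavudine and 1047 to 1128 without, with none of either list at 0 in any library, and the part of both in the members' values was not tested. Skeletal muscle markers summed to 1735 CPM in recurrent DMAG+STV tumor 2 and 22.7 in tumor 1. Averaged over primary and recurrent tumors, stavudine against none called 0 members and 0 genes (0%) by edgeR and 50 genes with 0 members by DESeq2, and 0 members had an unadjusted p under 0.05, beside 4.71% of genes. There the 9 values ran from -0.16 to 0.19 and 8 of the 9 intervals lay inside 1.5-fold.

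Recurrent DMAG tumors against primary untreated tumors gave the smallest differences for the members, by their median absolute value, of the 8 comparisons. Called members and called genes were 0 by edgeR (0%), DESeq2 called 66 genes and limma voom 0 with 0 members by either, and 0 had an unadjusted p under 0.05, beside 9.69% of all genes. No member separated the groups, beside 15.1% of all genes whose groups did not overlap. Among the 9 marker lists the proliferation markers alone did not overlap, summing to 1047 to 1128 CPM in the recurrent and 712 to 905 CPM in the primary tumors, and their part in the members' values was not tested. The median absolute log2 fold change of the members was 0.073, beside 0.27 over all genes, and 7 of the 9 intervals lay inside 1.5-fold.

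Recurrent against primary tumors under stavudine had the most negative median of the 8 comparisons for the members. By edgeR 0 members and 0 of 16870 genes were called (0%), and DESeq2 called 333 genes and limma voom 0, with 0 members by either. An unadjusted p under 0.05 was reached by 2 of 9, Tfb2m and Mgme1, both lower in recurrent tumors, beside 10.1% of all genes. This count stayed at 2 with DESeq2 and limma voom. It was 0 with a replicate block and with only the groups compared. It was also 0 without recurrent DMAG tumor 3, primary STV tumor 2 or primary STV tumor 3. The groups did not overlap for 6 of 9, with Tfam, Tfb2m, Ssbp1, Dguok and Mgme1 lower and Top1mt higher, beside 35.3% of all genes, with 2 tumors set against 3. The 6 negative and 3 positive values had a median of -0.15, beside 0.015 over all genes. Proliferation markers summed to 284 to 559 CPM in the recurrent and 711 to 1025 CPM in the primary tumors, and leukocyte markers to 269 to 386 and 134 to 152 CPM. Luminal epithelial markers summed to 1242 to 2042 CPM in the recurrent and 2097 to 2453 CPM in the primary tumors. By the mean log2 CPM of the luminal genes these groups overlapped, at 6.90 to 6.95 and 6.91 to 7.59. The other 6 of the 9 lists overlapped by their sums, and the part of these 3 in the members' values was not tested. Averaged over both arms, 0 members and 0 genes (0%) were called by edgeR, and 421 genes and 0 members by DESeq2. By edgeR 1 member (Tfb2m) had an unadjusted p under 0.05, beside 13.6% of genes. No member did so with no filter on low counts, with DESeq2's size factors or with a replicate block. All 9 intervals of that average lay inside 1.5-fold. The interaction of recurrence and stavudine called 0 members and 0 genes (0%) by edgeR and 187 genes and 0 members by DESeq2. An unadjusted p under 0.05 was reached by 0 members by edgeR, beside 7.84% of genes, and by 1 member by DESeq2. The intervals of the interaction were the widest, with 7 of 9 inside 2-fold.

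Between primary untreated tumors and glands, edgeR called 361 of 17135 genes (2.11%) and 0 of the 9, and DESeq2 and limma voom also called 0 of the 9. None of the 9 had an unadjusted p under 0.05, beside 24.5% of all genes, and for 0 of 9 did tumors and glands fail to overlap, beside 39.2% of all genes. The count over all genes ran from 0 without primary untreated tumor 2 or 3 to 3381 without gland 1. The median absolute log2 fold change was 0.16 for the members and 0.47 over all genes. Of the 9 marker lists 7 did not overlap here by summed CPM, and their part was not tested. By their sums, luminal and proliferation markers were higher in the tumors, and basal, adipocyte, brown fat, milk and endothelial markers were higher in the glands. The luminal list ran the other way by the mean log2 CPM of its 5 genes. That mean was 7.02 to 7.34 in the tumors and 7.98 to 8.02 in the glands. The 2 glands themselves differed: gland 2 was above gland 1 for Top1mt, Polrmt and Tfb2m and below it for Mgme1, Dguok, Tfam, Polg2 and Ssbp1, while Polg was nearly equal. Against gland 2 alone, Mgme1 had a log2 fold change of 0.78 by edgeR, in a fit that assumes the lone gland to vary like the other groups. Against gland 1 alone the value was 0.13. Leaving out each library in turn also turned the sign of Polg, Polg2, Tfam, Tfb2m, Dguok and Top1mt in this comparison.

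The members were also steady as single genes. The SD of log2 CPM over the 11 tumors had a median of 0.18 over the members, beside 0.37 over all 16870 genes and 0.26 over the 6155 genes whose mean level lay within the members' range. It was smallest for Polg (0.10), and 3.28% of all tested genes had a smaller SD. Tfb2m (0.11) and Dguok (0.12) followed, then Ssbp1 (0.15), Mgme1 (0.18), Polrmt (0.22), Tfam (0.24), Polg2 (0.27) and Top1mt (0.30). Top1mt and Polg2 were the members above the median of these 6155 genes. They also had the lowest mean log2 CPM of the members (3.03 and 2.98), and genes at each member's own level were not compared. Within groups the median SD was 0.15 for the members and 0.34 for all genes.

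**Figure D3:**
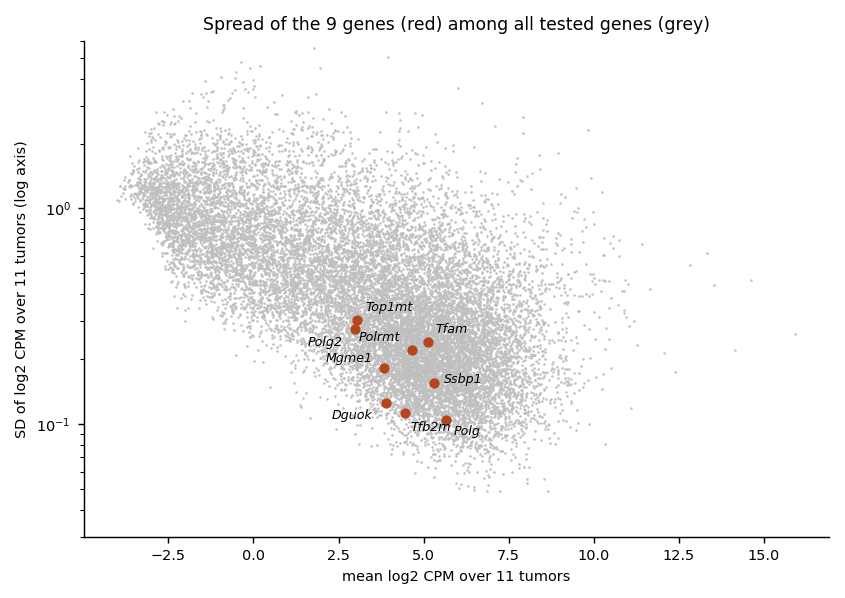
SD of log2 CPM over the 11 tumors (log axis) against mean log2 CPM for the 16870 genes tested (grey) and the 9 genes (red, named). The red points lie low in the cloud, from 0.10 for Polg to 0.30 for Top1mt.

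The lowest and highest values of the members fell as follows. How often all genes have their extremes in the same tumors was not counted, so no gathering particular to the members is shown. Primary untreated tumor 3, recurrent DMAG tumor 1 and recurrent DMAG+STV tumor 2 each held the lowest value of 3 members, and primary STV tumor 2 the highest value of 3. Primary untreated tumor 3 was lowest for Polg, Polrmt and Top1mt and highest for Polg2 and Tfb2m. Recurrent DMAG tumor 1 was lowest for Polg2, Tfam and Dguok and highest for Polg, so the extremes of both polymerase subunits fell in the same 2 tumors with the order turned round. Genes whose log2 CPM followed Polg most closely over the 11 tumors were Lmna (Pearson's r = 0.95), Ccdc102a (0.93) and Atox1 (0.93), among 12757 genes compared. For Tfam they were Muc15 (0.97), Zfp455 (0.94) and BC021767 (0.93). All these points share the same 11 libraries, and the values describe them only.

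Around these genes, 75 others of the same pathway were followed in 7 lists: partners in replication such as the helicase Twnk (listed as Peo1), factors of mitochondrial transcription and RNA handling, suppliers of nucleotides, the kinases that phosphorylate stavudine, nuclear regulators, reference genes for mitochondrial mass, and the stress response to mitochondrial damage. Of these, 74 were tested and Fgf21 was not. In the 7 comparisons among tumors 0 of the 74 were called. An unadjusted p under 0.05 was reached by 2 of 74 with stavudine in primary tumors, 5 with stavudine in recurrent tumors, 9 in recurrent against primary tumors without stavudine and 5 under it, which is 2.70%, 6.76%, 12.2% and 6.76% beside the shares of all genes given above.

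Among the 4 stavudine kinases, Tk1 is the cytosolic thymidine kinase that makes the monophosphate. It measured 44.0, 34.4 and 35.9 CPM in the recurrent DMAG tumors, against 28.1 and 19.9 in the recurrent DMAG+STV tumors, with a log2 fold change of -0.66 (95% interval -1.11 to -0.21, adjusted p = 0.430). Recurrent against primary tumors without stavudine gave a log2 fold change of 0.50 (95% interval 0.11 to 0.90, adjusted p = 0.509). The recurrent DMAG tumors were thus the highest group for Tk1, with no call in either comparison. Dtymk, the next kinase, measured 25.7, 27.0 and 27.1 CPM in the primary STV and 19.4 and 21.2 in the recurrent DMAG+STV tumors, with a log2 fold change of -0.39 (95% interval -0.66 to -0.11, adjusted p = 0.393). Both genes serve DNA synthesis in dividing cells. The proliferation markers given above differed between the same groups, and their part in the values of Tk1 and Dtymk was not tested.

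Among the nucleotide suppliers, Slc25a33, a pyrimidine carrier of the inner membrane, had 4.89, 4.67 and 4.87 CPM in the recurrent DMAG tumors, against 7.49, 12.8 and 11.3 in the primary untreated tumors, which did not overlap, with a log2 fold change of -1.15 (95% interval -1.92 to -0.38, adjusted p = 0.509). Grsf1, an RNA-binding protein of mitochondrial RNA granules, gave a log2 fold change of -0.34 (95% interval -0.63 to -0.064, adjusted p = 0.509) in the same comparison. It gave a log2 fold change of -0.24 (95% interval -0.52 to 0.045, adjusted p = 1.00) with stavudine in primary tumors. The smallest p of that last comparison belonged to Vdac1, a channel of the outer membrane and one of the mass genes, with a log2 fold change of -0.27 (95% interval -0.48 to -0.059, adjusted p = 1.00). Tomm20, a receptor for protein import, gave a log2 fold change of 0.42 (95% interval 0.059 to 0.78, adjusted p = 0.570) in recurrent tumors with stavudine.

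The stress genes held the widest single difference of the lists among tumors, with none of them called. Psat1, an enzyme of serine synthesis, measured 53.1 and 129 CPM in the recurrent DMAG+STV tumors and 25.6, 23.0 and 34.1 in the primary STV tumors, with a log2 fold change of 1.73 (95% interval 0.86 to 2.59, adjusted p = 0.292). Recurrent DMAG tumors had 56.3, 31.0 and 32.9 CPM, and stavudine against none there gave a log2 fold change of 1.19 (95% interval 0.33 to 2.05, adjusted p = 0.474). Recurrent DMAG+STV tumor 2 was thus the highest of all. Atf5, a transcription factor of the mitochondrial unfolded protein response, gave a log2 fold change of 0.98 (95% interval 0.35 to 1.61, adjusted p = 0.336) in recurrent against primary tumors under stavudine. Trib3, a pseudokinase induced by ATF4 and CHOP, gave a log2 fold change of -0.78 (95% interval -1.56 to -0.0068, adjusted p = 1.00) with stavudine in primary tumors and a log2 fold change of -0.81 (95% interval -1.40 to -0.22, adjusted p = 0.993) averaged over primary and recurrent tumors.

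Between primary untreated tumors and glands, 2 of the 74 were called, both lower in tumors, beside 2.11% of all genes. An unadjusted p under 0.05 by edgeR was reached by 12 of the 74 (16.2%), beside 24.5% of all genes. Ppargc1b, a coactivator of mitochondrial biogenesis, measured 6.71, 4.73 and 2.61 CPM in the tumors and 15.0 and 35.6 in the glands, with a log2 fold change of -2.43 (95% interval -3.62 to -1.25, adjusted p = 0.0489). Cs, citrate synthase, measured 139, 110.5 and 76.5 CPM and 168 and 837 CPM, with a log2 fold change of -2.21 (95% interval -3.30 to -1.13, adjusted p = 0.0491). Gland 2 was much the higher gland for both, and it also carried more skeletal muscle, brown fat and milk RNA (1921 against 52.2 CPM for the 2 brown fat markers), whose part was not tested. Grsf1 followed with a log2 fold change of 0.55 (95% interval 0.22 to 0.88, adjusted p = 0.0703), which missed the threshold. The calls of Ppargc1b and Cs were marginal: with 20 alternatives each, Ppargc1b was called in 6 and Cs in 5, with adjusted p from 0.00046 to 0.256 and from 0.00034 to 0.393. Leaving out any single library ended both calls, except gland 1 or recurrent DMAG tumor 1, and without gland 2 the log2 fold changes were -1.59 and -0.54.

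**Figure D4:**
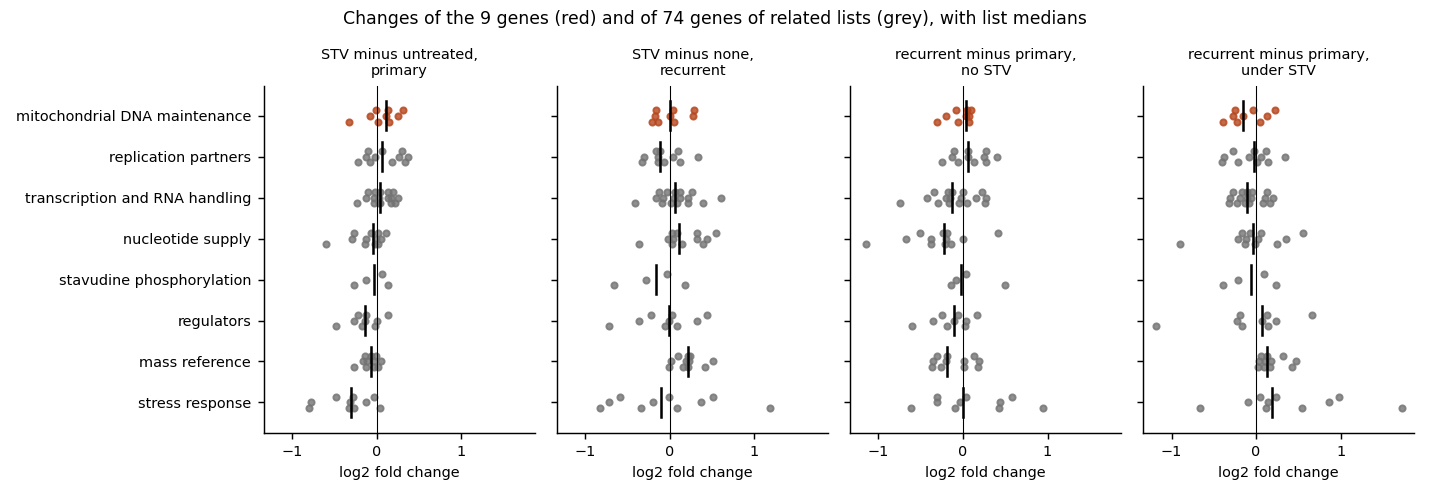
Log2 fold changes (horizontal axis) of the 9 maintenance genes (red) and the 74 tested genes of the 7 related lists (grey), one row per list, in 4 comparisons among tumors, with a black bar at each list's median. The red points stay between -0.39 and 0.31, and the stress genes reach 1.73 for Psat1 in recurrent against primary tumors under stavudine.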

How the data were processed

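The authors made stranded libraries from total RNA after removing ribosomal RNA, and their processing notes name bcl2fastq 2.20, STAR, featureCounts of Subread 1.6.2 and the builds mm10 and GRCm38. The strand setting and the handling of multiply mapped reads are not given in the sources used here. The deposited values were raw counts per gene, with 1 column for each of the 13 libraries, grouped by their labels. The rule for the 9 members uses no measured value, but they and all lists were chosen with earlier results of these data known.

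From the counts, edgeR 4.0.16 in R 4.3.3 was run with filterByExpr, TMM factors and the robust quasi-likelihood test, two-sided. The gland comparison was fitted on 13 libraries (17135 genes) and 7 comparisons on the 11 tumors (16870 genes). The Benjamini and Hochberg adjustment ran over all genes of a comparison, calls were made at an adjusted p under 0.05, and intervals are 95% and follow the moderated degrees of freedom. The script was tested on simulated data.

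Alternatives were DESeq2 1.42.0, its size factors, limma 3.58.1 with voom, no filter on low counts, the groups compared alone, library sizes without milk, muscle and adipocyte genes, a replicate block, and leaving out each library. Named in the text were all members, every called gene of the lists with the 3 smallest p of each comparison, and the 3 genes most like Polg and Tfam among those averaging a log2 CPM of 1 or more. Spread and likeness used log2 CPM with a prior count of 2. Exon lengths (transcripts linked to RefSeq) and gene positions came from GENCODE vM21 on GRCm38, promoter starts from RefSeq, and 24313 of 24421 symbols (99.56%) matched RefSeq. Library totals of 39921388 to 56887708 counts set the precision, and detection floors of 3 counts cover counting error only.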

Additional observations from a re-analysis of the deposited data

Results flagged for a closer look

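Besides the 9 members, the search covered only related genes that were called or among the 3 smallest p of a comparison, the interaction included. That choice favours opposite patterns, and their share over all genes was not counted. Of these related genes, 3 moved in opposite directions in primary and recurrent tumors. For them every tumor of one arm lay to one side, and every tumor of the other arm to the opposite side. Vdac1, a channel of the outer mitochondrial membrane, was lower with stavudine in all primary tumors and higher with it in all recurrent tumors, and the recurrent tumors were likewise below the primary ones without stavudine and above them under it. The difference between these effects was 0.42 on the log2 scale, and edgeR's interaction test did not pass the threshold (adjusted p = 0.536). Esrra, an orphan nuclear receptor of mitochondrial biogenesis, had the same pattern on both sides, with a difference of 0.59 (adjusted p = 0.577 by edgeR). For Esrra some margins were narrow: recurrent DMAG tumor 3 had 28.35 CPM and primary STV tumor 3 had 27.96, against 28.39 in primary untreated tumor 3. Dtymk, thymidylate kinase, did not overlap in the stavudine comparison of either kind of tumor, being higher with stavudine in primary tumors and lower in recurrent ones, with a difference of -0.42 (adjusted p = 0.600 by edgeR). Its margin in primary tumors was narrow too, with 25.74 CPM in primary STV tumor 1 against 25.25 in primary untreated tumor 1. None of the 9 maintenance genes moved in opposite directions in this way.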

How the results depend on the processing

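Of the 72 values of the members (9 genes in 8 comparisons), 48 kept their sign in every alternative and 24 turned in at least one. Among 1287 alternative values, 1227 kept both sign and side of the threshold, 59 turned and 1 passed the threshold. That was Mgme1 between tumors and glands without gland 1, a fit with a lone gland in which many other genes were also called. All 24 that turned had a log2 fold change within 0.33 of 0. The members called stayed at 0 in every alternative but that one, with a range of 0 to 1 between tumors and glands when libraries were left out.

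Apart from left-out libraries, the values that turned were those nearest to 0. Polg with stavudine in primary tumors was -0.0028 and became 0.019 with no filter on low counts, 0.012 with DESeq2's size factors and with DESeq2, 0.019 without milk, muscle and adipocyte genes in the library sizes and 0.020 with only the groups compared. Top1mt with stavudine in recurrent tumors was 0.0043 and became -0.0023, -0.011, -0.010, -0.011 and -0.0095 in the same order.

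Replicate numbers showed no regular pairing: of 15 pairs of tumors sharing a number, 3 had deviations correlated above 0.1 (range -0.29 to 0.22). With so few libraries in a group, and no pairs of unlike number compared, these values cannot exclude pairs. With a replicate block, Top1mt in recurrent tumors was -0.097, 4 genes were called between tumors and glands and 0 in the tumor comparisons, and it changed no other sign and no call of a member.

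Counts over all genes depended on the tool. DESeq2 called 2360 genes between tumors and glands, where edgeR called 361. It called 18 with stavudine in primary tumors, 268 in recurrent tumors and 50 on average, and 66, 333 and 421 for recurrence without stavudine, under it and on average, with 187 for the interaction, where edgeR called 0. The cause was not tested. Of the related genes, Ppargc1b and Cs, called between tumors and glands, kept their sign throughout but lost their calls with no filter on low counts (adjusted p = 0.0504 and 0.0534), the replicate block (0.125 and 0.147) and only the groups compared (0.15 and 0.209), and Cs also with limma voom (0.0746), all but that last by edgeR. With only the groups compared, 0 genes were called between tumors and glands and 2 for recurrence under stavudine.

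Leaving out 1 library moved the gland count between 0 (without primary untreated tumor 2, or 3) and 3381 (without gland 1), with 1360 without recurrent DMAG tumor 1, 257 without gland 2 and 31 to 135 without any other. In the same fits 0 to 141 genes were called with stavudine in recurrent tumors, 0 to 28 on average, 0 to 1 for recurrence without stavudine, 0 to 100 under it, 0 to 6 on average and 0 to 77 for the interaction. Each of these highest counts came without recurrent DMAG+STV tumor 1, except the single gene, which came without primary untreated tumor 1. Without recurrent DMAG tumor 1, 18 genes were called for recurrence under stavudine.

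The members whose sign turned with a left-out library had these ranges. Between tumors and glands Polg ran from -0.096 to 0.065, Polg2 from -0.059 to 0.38, Tfam from -0.058 to 0.38, Tfb2m from -0.21 to 0.26, Dguok from -0.011 to 0.53 and Top1mt from -0.55 to 0.44. With stavudine in primary tumors Polg ran from -0.063 to 0.066, Polg2 from -0.16 to 0.031, Tfb2m from -0.018 to 0.059 and Top1mt from -0.54 to 0.026. With stavudine in recurrent tumors Tfam ran from -0.15 to 0.17, Dguok from -0.071 to 0.11 and Top1mt from -0.14 to 0.22, and on average Ssbp1 from -0.063 to 0.042, Top1mt from -0.27 to 0.0070 and Mgme1 from -0.063 to 0.10. For recurrence without stavudine Tfam ran from -0.077 to 0.25, Polrmt from -0.047 to 0.19, Dguok from -0.11 to 0.072 and Top1mt from -0.42 to 0.14. Under stavudine Polg2 ran from -0.043 to 0.13, on average Tfam from -0.16 to 0.0057 and Top1mt from -0.15 to 0.12, and in the interaction Top1mt from -0.037 to 0.54.

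Groups held 2 or 3 libraries, and no member had fewer than 178 counts in a library. How much of the width of the intervals is counting error was not tested. Where a fit left out 1 of 2 libraries of a group, the lone sample was assumed to vary like the other groups.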

Other observations

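Of the 36 pairs among the 9 genes, Polg and Polg2 had the strongest correlation of log2 CPM over the 11 tumors, and it was negative (Pearson's r = -0.86, Spearman's rho = -0.74). The pair was picked after its values were seen, and all points share the same libraries and scaling, so the value is a description. It was -0.63 without recurrent DMAG tumor 1 and primary untreated tumor 3, the tumors farthest from the median of Polg, and -0.75 without the first of these alone. Tfam and Dguok followed with r = 0.80, which was 0.55 without recurrent DMAG tumor 1.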
